A study of Mus musculus with 69 samples.

Results

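*Spp1*, *Fgf4*, *Zfp42*, *Utf1* and *Fbxo15* are marker genes of mouse embryonic stem (ES) cells that earlier work had named as targets of Oct3/4, in part together with Sox2. They are the 5 of 20606 genes and unnamed oligos whose rows carry one of these names in the array annotation or the study's tables. The data are a time course of ES cells in which Oct3/4 was repressed or an *Oct3/4* transgene was switched on. For each gene the question was how its RNA changed when Oct3/4 was shut off and when an *Oct3/4* transgene was switched on. ZHBTc4 cells have both *Pou5f1* alleles disrupted and live on a Tet-regulated *Oct3/4* transgene. They stood without tetracycline (Tet) at 0 h and were then given Tet, which represses it. ZHTc6 cells are *Pou5f1*+/- and carry a Tet-regulated *Oct3/4* transgene that is silent in Tet, so that they stood with Tet at 0 h and Tet was then withdrawn. Both lines derive from CGR8 ES cells, ZHBTc4 was made from ZHTc6, and both were grown with LIF on gelatin. RNA from 24, 48, 72, 96 and 120 h was hybridised against 0 h RNA of the same line on 60 dual-colour arrays, as a dye-swapped pair for each of 3 samples per line and time point. No array followed a line with Tet left unchanged over these days. Effects of the Oct3/4 level, of Tet itself and of time in culture thus cannot be told apart. A further 9 arrays set single samples in Cy3 against Universal Mouse Reference RNA in Cy5: 3 of ZHBTc4 and 3 of ZHTc6 cells at 0 h, and 3 of EB5 ES cells transfected with siTcl1 at 560 uM or 1120 uM (the unit of the labels) or with siGFP.

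Oct3/4, the product of *Pou5f1*, is a POU-domain factor that binds an octamer motif, and on many ES cell enhancers it sits beside Sox2 on an adjoining Sox motif. Such Oct-Sox elements are known from the enhancers of *Fgf4* and *Utf1*. FGF4 is a secreted growth factor that acts on ES cells and on the trophoblast through the FGF receptors, and *Spp1* encodes osteopontin, a secreted ligand of integrins and CD44. *Zfp42* (Rex1) encodes a zinc finger protein of the YY1 family and *Utf1* a chromatin-associated protein, both widely used to mark undifferentiated ES cells. *Fbxo15* encodes an F-box protein, the substrate-binding part of an SCF ubiquitin ligase, and its locus has served as a reporter of pluripotency.

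In RefSeq (GRCm38.p6) *Fgf4* lies at chr7:144861386-144865245, *Utf1* at chr7:139943856-139945112, *Spp1* at chr5:104435111-104441053 and *Zfp42* at chr8:43295067-43307009. The promoter table of RefSeq held 5 starts of 4 of the genes, with none for *Fbxo15*. The octamer ATTTGCAT, searched on both strands in the 250 bases before each start, was found at 2 of these 5 starts and at 526 of 32851 starts of all genes (1.6%). They are shown because they hold the octamer, and they belong to *Zfp42* and *Spp1*. A link between the octamer and the ratios of these genes was not tested. The run of *Zfp42* is the 250 bases before its start (chr8:43307010-43307259, minus strand, GRCm38.p6), and that of *Spp1* is 30 bases of the window before its other start, which lies within the span of the gene (chr5:104435971-104436000, plus strand). Capitals mark the octamer, which reads in the direction of the gene in *Zfp42* and as its reverse complement in *Spp1*.
Zfp42: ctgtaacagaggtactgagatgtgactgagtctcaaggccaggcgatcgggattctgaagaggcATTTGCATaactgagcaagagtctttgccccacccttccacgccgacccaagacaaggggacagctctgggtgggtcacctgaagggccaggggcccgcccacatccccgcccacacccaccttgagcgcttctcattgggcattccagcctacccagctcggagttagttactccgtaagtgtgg
Spp1: tcacatttgaaATGCAAATggaaaaagcaa
The octamer stands 186 to 179 bases before the start of *Zfp42* and 210 to 203 bases before that start of *Spp1*. The Sox motif CATTGT was at none of the 5 starts and at 10.7% of all starts. The GC box GGGCGG had 4 matches before *Utf1*, of which a pair shares 1 base, 2 before *Fgf4* and 2 before *Zfp42*, against 32.7% of all starts with a match. These letters are a description of the windows, and enhancers farther away were not searched.

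On the time-course arrays *Zfp42* was measured by 2 oligos and each other gene by 1, with a second oligo annotated in part to *Utf1* left out. The annotation gives the oligo of *Fgf4* to *Fgf4* and *Slc22a18*, that of *Utf1* to *Kndc1* and *Utf1* and that of *Fbxo15* to *Fbxo15* and *Zadh2*. The tables of the study give the oligos of *Utf1* and *Fbxo15* the names used here, they alone name the oligo of *Spp1*, and they do not name that of *Fgf4*. That oligo was kept because no other row carries the name. Several of those tables list genes chosen for a change on these arrays. *Spp1*, *Zfp42* and *Fbxo15* are in one of genes that were lower in both lines and *Utf1* is in one of genes that changed with time, so that the changes of these 4 genes are not independent of that choice. Values are log2 ratios of the time point over 0 h, averaged over the dye-swapped pair, and ± gives the SD of 3 replicates. Each mean was tested against 0 with limma, with both lines in one fit and Benjamini-Hochberg adjustment over all 20606 features, and a gene is called higher or lower where the adjusted p was below 0.05. In such bulk RNA fewer cells of a type and less RNA per cell cannot be told apart.

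Facts of the arrays as a whole bear on these values. Across oligos, both arrays of a pair correlated with r between 0.0535 and 0.835, the lowest in a ZHBTc4 pair at 24 h. At 24 and 48 h in ZHTc6 cells the ratios of all genes spread widely, with 5th and 95th percentiles of -1.34 and 1.05 at 24 h and of -1.25 and 0.75 at 48 h, against -0.57 and 0.46 at 72 h. In ZHBTc4 cells they widened with time, between -0.65 and 0.60 at 24 h and between -1.02 and 1.25 at 120 h. *Pou5f1* itself, as a check of the manipulation, averaged -2.41 over the 5 days in ZHBTc4 cells (adjusted p = 1.16e-06) and 0.46 in ZHTc6 cells (adjusted p = 0.00713). By time point *Pou5f1* was lower at all 5 in ZHBTc4 cells (from -2.75 to -2.12), and in ZHTc6 cells it passed at 120 h alone (0.69, adjusted p = 0.0154), with 0.12 at 24 h (adjusted p = 0.58), 0.17 at 48 h (0.354), 0.93 at 72 h (0.0912) and 0.37 at 96 h (0.247). Replicates of the same number shared their 0 h RNA, so that time points of a line are not independent of each other. The ZHTc6 pair labelled sample 2 at 120 h against sample 1 at 0 h was taken as replicate 1.

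Over the 5 days all 5 genes were lower in ZHBTc4 cells (median -2.68) and 4 of 5 in ZHTc6 cells (median -1.70). Of all features 22.8% were lower in ZHBTc4 cells (median of all -4.90e-04) and 20.4% in ZHTc6 cells (median 0.07). Since 4 of the 5 genes are in tables chosen for such changes, these shares, and those below, do not test the counts. In ZHBTc4 cells the number of lower genes was 3 of 5 at 24 h (7.33% of all features) and 5 of 5 from 48 h on, against 13.0% of features at 48 h, 19.9% at 72 h and 23.2% both at 96 and 120 h. In ZHTc6 cells 3 were lower and 2 higher both at 24 h (24.2% of features lower and 31.3% higher) and at 48 h (25.4% and 35.1%). At 72 h 4 of 5 were lower there (10.6%), and at 96 h (16.3%) and 120 h (13.1%) all 5 were. The genes thus split by their course: *Spp1*, *Zfp42* and *Fbxo15* were below 0 h in every pair of both lines, whereas *Utf1* and *Fgf4* were above 0 h in all ZHTc6 replicates of the first 2 days. These rises lay within the spread of all features. At 24 h the means were 0.91 for *Utf1* and 0.53 for *Fgf4*, below the 95th percentile of 1.05. At 48 h they were 0.51 and 0.42, below that of 0.75.

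**Figure D1:**
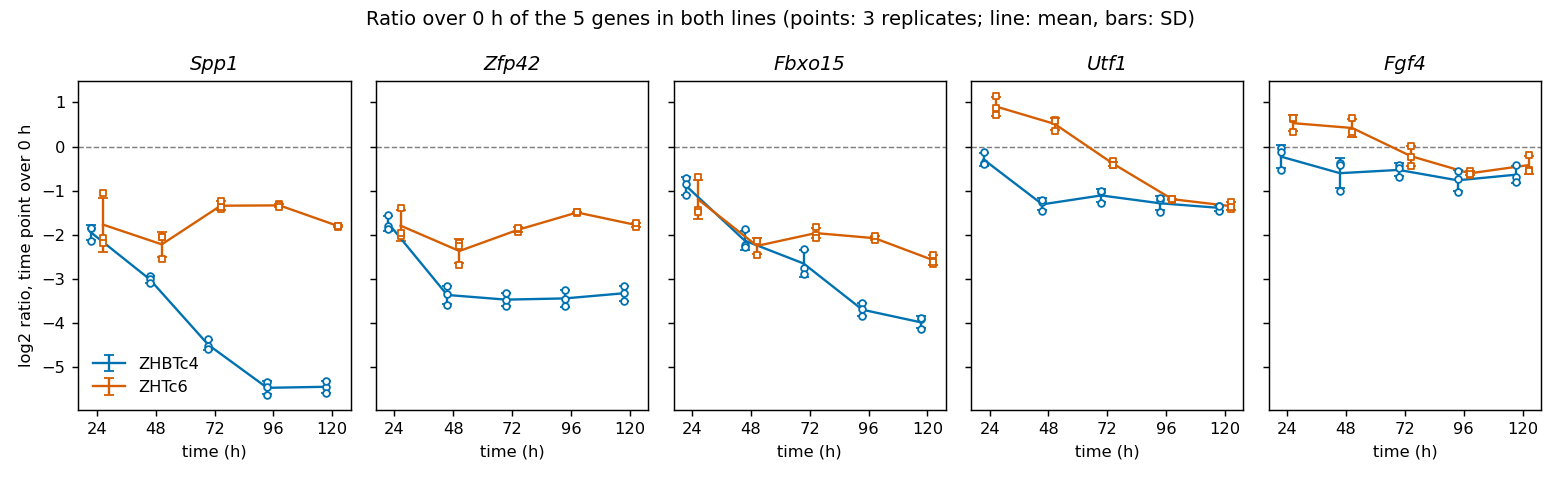
Log2 ratio over 0 h (y axis) against time in hours (x axis) for the 5 genes, with ZHBTc4 in blue circles and ZHTc6 in orange squares; points are the 3 replicates, lines their means and bars the SD. *Spp1*, *Zfp42* and *Fbxo15* stay below the dashed line of 0 h in both lines, and *Utf1* and *Fgf4* of ZHTc6 cells start above it and end below it.

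*Spp1* had the deepest fall of the 5 genes in ZHBTc4 cells. There the replicates stood at -1.86, -1.84 and -2.14 at 24 h, at -2.94, -3.00 and -3.09 at 48 h and at -4.37, -4.54 and -4.60 at 72 h. At 96 h they were -5.34, -5.64 and -5.46, and at 120 h -5.45, -5.32 and -5.60. The mean at 120 h of -5.45 ± 0.14 (adjusted p = 2.52e-07) left 2.28% of the 0 h level, a 43.8-fold fall, and only 1 of the 20606 features had a lower ratio at that time. Each step up to 96 h passed limma's test between consecutive time points: -1.06 to 48 h (SE 0.19, adjusted p = 5.92e-04), -1.49 to 72 h (adjusted p = 1.19e-05) and -0.98 to 96 h (adjusted p = 0.00391). The last of these missed the threshold without ZHBTc4 replicate 1 (-0.98, adjusted p = 0.0678) or replicate 2 (-0.91, adjusted p = 0.0824). The step to 120 h was 0.02 (adjusted p = 1).

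In ZHTc6 cells *Spp1* was lower from the first day on and lowest at 48 h. Its replicates were -2.07, -2.18 and -1.07 at 24 h, at which replicate 3 stood apart, and -2.06, -2.05 and -2.55 at 48 h. At 72 h they were -1.42, -1.38 and -1.23, and at 120 h -1.82, -1.80 and -1.80. The lowest mean was that of 48 h, -2.22 ± 0.29 (adjusted p = 3.72e-05), or 21.4% of the 0 h level. The step from 48 to 72 h was a rise of 0.88 (SE 0.19, adjusted p = 6.62e-04), and the level at 72 h was still 2.54-fold lower than at 0 h. Among the wide ratios of 24 h the mean of -1.77 held rank 440 from the lowest feature, while -1.34 at 72 h held rank 70 and -1.81 at 120 h rank 35.

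*Fgf4*, the other secreted factor, had the smallest 5-day change of the 5 genes in both lines. In ZHBTc4 cells the replicates were -0.03, -0.54 and -0.12 at 24 h, with a mean that did not pass (adjusted p = 0.321), and -0.55, -1.03 and -0.73 at 96 h. The mean at 96 h was -0.77 ± 0.24 (adjusted p = 7.63e-04), or 58.7% of the 0 h level, and the 5-day mean was -0.55 ± 0.22 (adjusted p = 9.07e-04). In ZHTc6 cells the replicates were 0.32, 0.62 and 0.65 at 24 h, 0.64, 0.28 and 0.33 at 48 h and 0.01, -0.24 and -0.43 at 72 h. They stood at -0.55, -0.65 and -0.62 at 96 h. *Fgf4* was thus 1.44-fold higher than at 0 h at 24 h (adjusted p = 0.0104), 1.52-fold lower at 96 h (adjusted p = 0.00451), and its 5-day mean of -0.06 ± 0.055 did not pass (adjusted p = 0.557). The step from 48 to 72 h was a fall of 0.64 (SE 0.17, adjusted p = 0.0047), and it was lost without ZHTc6 replicate 3 (-0.58, adjusted p = 0.0661).

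The oligo of *Fgf4* also had the largest dye effect of the 5 genes. With the time point in Cy5 its ratio was higher than in Cy3 in 29 of 30 pairs, by a median of 0.58 and at most 1.45, whereas the medians of the absolute gap were 0.055 and 0.074 for the oligos of *Zfp42*, 0.059 for *Utf1*, 0.10 for *Spp1* and 0.22 for *Fbxo15*. The mean of the pair balances the dyes. With Cy5 alone *Fgf4* of ZHBTc4 cells did not pass over the 5 days (-0.25, adjusted p = 0.132), and the values of ZHTc6 cells were lost in Cy3 alone at 24 h (0.27, adjusted p = 0.224) and at 48 h (0.15, adjusted p = 0.528). The ZHTc6 call at 48 h (0.42, adjusted p = 0.0329) also missed the threshold when any of the ZHTc6 replicates was left out, with centred or scaled arrays, with no rows removed and with the unmoderated test (adjusted p from 0.0511 to 0.165). That at 24 h was lost without ZHTc6 replicate 2 (0.49, adjusted p = 0.0716) or replicate 3 (0.47, adjusted p = 0.0534), and that of ZHBTc4 cells at 48 h (-0.61, adjusted p = 0.0176) without ZHBTc4 replicate 2 (-0.41, adjusted p = 0.0623), with Cy5 alone (-0.32, adjusted p = 0.346), with each line fitted alone (0.0555) and by the unmoderated test (0.0806). The ZHTc6 call at 120 h (-0.42, adjusted p = 0.0221) was lost without ZHTc6 replicate 1 (-0.37, adjusted p = 0.134) or replicate 3 (-0.36, adjusted p = 0.138), with Cy5 alone (-0.19, adjusted p = 0.127) and by the unmoderated test (0.0744).

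*Zfp42* reached its floor in ZHBTc4 cells by 48 h. The replicates were -1.81, -1.55 and -1.87 at 24 h and -3.59, -3.17 and -3.35 at 48 h, and at 120 h they were -3.50, -3.16 and -3.33. The step from 24 to 48 h was -1.62 (SE 0.15, adjusted p = 1.42e-07). The later steps were -0.11, 0.03 and 0.12 and did not pass (adjusted p from 0.888 to 1). The level was 29.8% of the 0 h level at 24 h and 9.68% at 48 h, and its lowest mean was 8.99% at 72 h. In ZHTc6 cells the replicates were -2.03, -1.97 and -1.39 at 24 h, -2.18, -2.25 and -2.68 at 48 h, and -1.95, -1.87 and -1.85 at 72 h. They were -1.49, -1.50 and -1.50 at 96 h, and at 120 h -1.77, -1.84 and -1.73. The mean at 48 h, -2.37 ± 0.27, was the lowest, and the step to 72 h was a rise of 0.48 (SE 0.15, adjusted p = 0.0141). That step was lost without ZHTc6 replicate 2 (0.53, adjusted p = 0.051) or replicate 3 (0.31, adjusted p = 0.145). So was the fall of 0.58 from 24 to 48 h (adjusted p = 0.0171), with -0.72 (adjusted p = 0.104) and -0.22 (adjusted p = 0.397). The rise of 0.39 from 72 to 96 h did not pass (adjusted p = 0.109) but did with the number of the 0 h RNA as a replicate block (adjusted p = 0.045). Both oligos of *Zfp42* gave like ranges over the 30 pairs, from -3.67 to -1.38 and from -3.58 to -1.40.

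*Utf1* was lower from 48 h on in ZHBTc4 cells and, after a rise, from 72 h on in ZHTc6 cells. In ZHBTc4 cells the replicates were -0.37, -0.39 and -0.12 at 24 h and -1.26, -1.47 and -1.21 at 48 h, a step of -1.02 (SE 0.11, adjusted p = 1.47e-06). They stayed between -1.01 and -1.48 up to 120 h, where the mean of -1.39 ± 0.07 (adjusted p = 6.31e-06) left 38.1% of the 0 h level. The mean at 24 h, -0.29, did not pass (adjusted p = 0.176), but it did in a fit of all time points together (adjusted p = 0.00666, and 0.00451 with a replicate block) and with scaled arrays (adjusted p = 0.04). In ZHTc6 cells *Utf1* was 1.15, 0.87 and 0.71 at 24 h and 0.60, 0.35 and 0.58 at 48 h. It then was -0.33, -0.42 and -0.43 at 72 h, -1.21, -1.19 and -1.18 at 96 h and -1.42, -1.26 and -1.38 at 120 h. The level was thus 1.88-fold of that at 0 h at 24 h (adjusted p = 5.16e-04) and 39.1% of it at 120 h (adjusted p = 4.06e-05). The steps were -0.91 from 48 to 72 h (adjusted p = 2.11e-06) and -0.80 from 72 to 96 h (adjusted p = 1.00e-04). That from 24 to 48 h, -0.40 (adjusted p = 0.0253), was lost without ZHTc6 replicate 1 (-0.32, adjusted p = 0.27) or 2 (-0.34, adjusted p = 0.347). The call at 72 h (adjusted p = 0.012) did not survive leaving out any ZHTc6 replicate (adjusted p from 0.0618 to 0.0819). Another oligo, which the annotation gives to *Utf1* and *Zfp511* and no table names, was above 0 in all 30 pairs, between 0.053 and 0.78. It was not used for *Utf1*, and which transcript each oligo reads was not tested.

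*Fbxo15* (chr18:84934552-84981476) had its lowest ratio in ZHBTc4 cells at 120 h. The replicates were -0.72, -0.84 and -1.11 at 24 h, -1.88, -2.24 and -2.28 at 48 h and -2.32, -2.76 and -2.88 at 72 h. They then stood at -3.56, -3.85 and -3.70 at 96 h, and reached -3.93, -3.90 and -4.15 at 120 h, without overlap between consecutive time points. The level at 120 h was 6.28% of that at 0 h (-3.99 ± 0.14, adjusted p = 5.36e-07). The steps to 48 h (-1.25, adjusted p = 3.16e-05) and to 96 h (-1.05, adjusted p = 8.84e-04) passed. That to 72 h, -0.52 (adjusted p = 0.0931), passed with the number of the 0 h RNA as a replicate block (adjusted p = 0.0373), and that to 120 h was -0.29 (adjusted p = 0.84). The call at 24 h (adjusted p = 0.00916) missed the threshold without ZHBTc4 replicate 3 (-0.78, adjusted p = 0.0522) or by the unmoderated test (0.0915). In ZHTc6 cells the replicates were -1.43, -1.48 and -0.70 at 24 h, at which replicate 3 again was the highest, and -2.16, -2.14 and -2.47 at 48 h. The mean then stayed near that level, with -1.97 at 72 h, -2.08 at 96 h and -2.58 ± 0.11 at 120 h (adjusted p = 1.76e-05), or 16.7% of the 0 h level. At 96 h only 2 of all 20606 features had a lower ratio in ZHTc6 cells. The step of -0.50 from 96 to 120 h missed the threshold (adjusted p = 0.105) and passed with the number of the 0 h RNA as a replicate block (adjusted p = 0.0394).

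Counted over the genes, 7 of 20 steps passed in ZHBTc4 cells and 8 of 20 in ZHTc6 cells. From 24 to 48 h 4 of 5 genes went down in ZHBTc4 cells (3.15% of all features did) and 3 of 5 in ZHTc6 cells (6.45%). From 48 to 72 h 1 gene went down in ZHBTc4 cells (1.86%), while in ZHTc6 cells *Utf1* and *Fgf4* went down (21.6%) and *Spp1* and *Zfp42* went up (19.5%). From 72 to 96 h 2 genes went down in ZHBTc4 cells (0.641%) and 1 in ZHTc6 cells (2.44%). The steps from 96 to 120 h had adjusted p from 0.105 to 1. Among the shares of lower features given here, that of the step to 72 h of ZHTc6 cells was by far the largest. The share of higher features was counted for that step alone.

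The lines differed over the 5 days in all 5 genes, each with the lower ratio in ZHBTc4 cells, as 22.3% of all features had. The difference, ZHBTc4 minus ZHTc6, was -2.38 for *Spp1* (SE 0.081, adjusted p = 3.84e-06), -1.21 for *Zfp42* (SE 0.096, adjusted p = 8.63e-05) and -0.77 for *Utf1* (SE 0.084, adjusted p = 3.60e-04). It was -0.66 for *Fbxo15* (SE 0.10, adjusted p = 0.00195) and -0.49 for *Fgf4* (SE 0.11, adjusted p = 0.0117). The 3 replicates of either line did not overlap in any of the 5 genes. The share of all features without overlap was not counted, so that this is a description and adds nothing to the calls. With each array scaled to the same spread, *Fbxo15* (-0.15, adjusted p = 0.702) and *Fgf4* (-0.31, adjusted p = 0.0792) no longer passed, and *Fgf4* also missed the threshold with Cy5 alone (adjusted p = 0.0959) or by the unmoderated test (0.0547).

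The time of the difference set the genes apart. At 24 h *Utf1* (-1.20, SE 0.18, adjusted p = 0.00184) and *Fgf4* (-0.76, SE 0.20, adjusted p = 0.0143) were lower in ZHBTc4 than in ZHTc6 cells (23.0% of all features were), and the replicates of the lines overlapped in the other 3 genes. The differences of these were -0.17 for *Spp1* (SE 0.29), 0.05 for *Zfp42* (SE 0.21) and 0.31 for *Fbxo15* (SE 0.24), with adjusted p from 0.32 to 0.861. At 48 h 4 of 5 genes differed (27.2% of features), all but *Fbxo15* (0.12, SE 0.15, adjusted p = 0.544). At 96 h (18.1%) and 120 h (15.7%) it was *Spp1*, *Zfp42* and *Fbxo15* that differed, with -4.14 (SE 0.097), -1.95 (SE 0.11) and -1.62 (SE 0.095) at 96 h. *Utf1* then differed by -0.09 (SE 0.099, adjusted p = 0.522) and *Fgf4* by -0.16 (SE 0.13, adjusted p = 0.408), with overlapping replicates. At 72 h (11.3%) 4 of 5 differed, among them *Spp1* by -3.16 and *Utf1* by -0.72 (adjusted p = 0.00336).

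**Figure D2:**
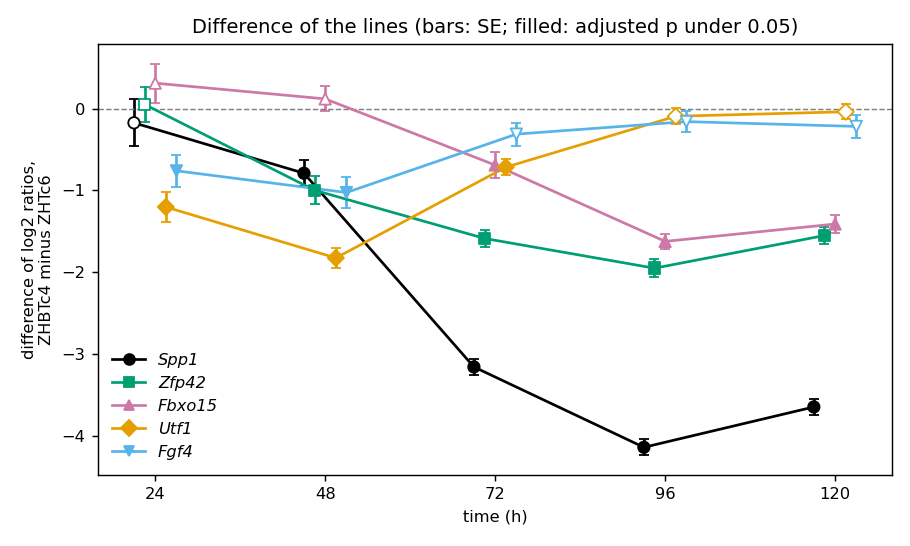
Difference of the log2 ratios over 0 h, ZHBTc4 minus ZHTc6 (y axis), against time in hours (x axis) for each gene, offset sideways for clarity; bars are the SE of limma's contrast and filled symbols passed an adjusted p of 0.05. *Utf1* and *Fgf4* lie below 0 at 24 and 48 h and near it at 96 h, where *Spp1*, *Zfp42* and *Fbxo15* lie at -4.14, -1.95 and -1.62.

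Some of these calls rest on the setting. With scaled arrays *Fbxo15* no longer differed past the threshold at 96 h (-0.33, adjusted p = 0.405) or 120 h (-0.01, adjusted p = 0.986), nor *Zfp42* at 72 h (-0.48, adjusted p = 0.379) or 120 h (-0.44, adjusted p = 0.396), while *Spp1* passed at 24 h (-0.89, adjusted p = 0.0203). The 24 h difference of *Fgf4* was lost without ZHBTc4 replicate 2 (-0.61, adjusted p = 0.0542) or ZHTc6 replicate 2 (-0.72, adjusted p = 0.0604), with Cy5 alone (-0.66, adjusted p = 0.0933) and by the unmoderated test (0.055). With scaled arrays the difference of *Utf1* was positive at 96 h (0.51, adjusted p = 0.0236) and also at 120 h (0.61, adjusted p = 0.0394), that of *Zfp42* at 24 h was -0.63 (adjusted p = 0.0289), and that of *Fbxo15* at 72 h was 0.48 (adjusted p = 0.234), against -0.69 without scaling (adjusted p = 0.025). That call of *Fbxo15* at 72 h was also lost with the sample number as a replicate block (adjusted p = 0.0554) and in 5 of 6 fits that left out a replicate. Replicate 3 of ZHTc6 cells was the highest of the 3 at 24 h for *Spp1*, *Zfp42* and *Fbxo15*, and without it the 24 h difference was 0.18 for *Spp1* (adjusted p = 0.452) and passed for *Fbxo15* (0.56, adjusted p = 0.0475).

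The members followed each other in ZHBTc4 cells and formed a pair of groups in ZHTc6 cells. Over the 15 means of dye-swapped pairs of ZHBTc4 cells all 10 correlations between the genes were positive (Pearson's r from 0.44 to 0.97, the highest between *Spp1* and *Fbxo15*). Over the 15 of ZHTc6 cells r was 0.92 between *Utf1* and *Fgf4* and 0.84 between *Spp1* and *Zfp42*, while it was between -0.54 and -0.45 from either of the first pair to either of the other. *Fbxo15* stood between them, with r of 0.62 to *Utf1* and 0.33 to *Spp1*. These points share 5 time points and the 0 h RNA of each number, and the values are a description.

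Among the 5193 named genes the pattern over all 30 means was most like that of *Spp1* in *Sox2* (r = 0.979), *Eci1* (0.976) and *Got1* (0.968). For *Zfp42* these were *Sgk1* (0.945), *Slc29a1* (0.943) and *Nid2* (0.94), and for *Fbxo15* *Stmn1* (0.927), *Gsta4* (0.925) and *Rhd* (0.918). *Utf1* was most like *Mapk8ip1* (0.941), *Erbb4* (0.936) and *Esam* (0.936), of which *Mapk8ip1* stood at 0.00289 over the 5 days in ZHBTc4 cells. *Fgf4* was most like *Nup188* (0.919), *Itgb7* (0.913) and *Utf1* (0.909). A high r here says that the courses had one shape and not that the changes were of one size, since *Eci1* stood at -0.91 and *Spp1* at -4.08 over the 5 days in ZHBTc4 cells.

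Of 7 transcription factors of the ES cell state all 7 were lower over the 5 days in ZHBTc4 cells (median -1.87) and 6 in ZHTc6 cells (median -0.74), where *Pou5f1* was higher. *Sox2*, the partner of Oct3/4 on Oct-Sox elements, averaged -4.25 ± 0.036 in ZHBTc4 cells (adjusted p = 5.84e-08) and -1.29 ± 0.18 in ZHTc6 cells (adjusted p = 4.29e-05). *Nanog* averaged -1.87 and -0.91, and *Klf4* -2.77 and -1.83. By time, *Sox2* of ZHBTc4 cells was at -1.62 at 24 h and at -5.82 at 120 h, near the values of *Spp1* of -1.95 and -5.45, and at -1.72 and -1.53 in ZHTc6 cells. *Nanog* at 24 h was at -0.10 in ZHBTc4 cells (adjusted p = 0.678), whereas *Klf4* was at -1.94 (adjusted p = 2.48e-04). At that time *Spp1*, *Zfp42* and *Fbxo15* were lower, and *Utf1* and *Fgf4* did not pass. Whether these factors act on the 5 genes was not tested. Of 8 measured genes otherwise reported as Oct3/4 targets, *Sox2* and *Nanog* among them, 6 were lower and 2 higher in each line, and their median was -2.86 in ZHBTc4 cells, against -0.51 in ZHTc6 cells. *Lefty1*, a Nodal antagonist, had a 5-day mean of -3.68 in ZHBTc4 and of 0.45 in ZHTc6 cells, opposite directions that none of the 5 genes showed over the 5 days. *Otx2*, a homeobox factor, averaged -3.45 and -1.07, and *Upp1*, a uridine phosphorylase, -3.34 and -0.39. The genes that were higher in ZHBTc4 cells, named after their values were seen, were *Pdgfa* (1.25 there, -0.54 in ZHTc6 cells) and *Ifngr1* (0.33 and 0.44).

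**Figure D3:**
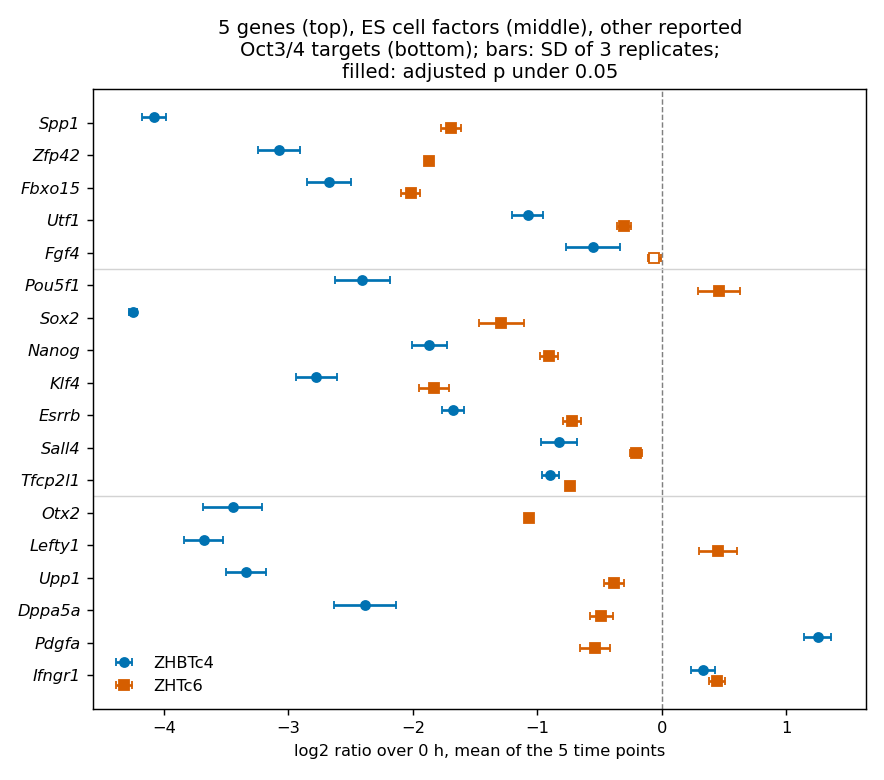
Mean log2 ratio over 0 h of the 5 time points (x axis) for the 5 genes (top), 7 factors of the ES cell state (middle) and other reported Oct3/4 targets (bottom), with ZHBTc4 in blue circles above ZHTc6 in orange squares; bars are the SD of 3 replicates and filled symbols passed an adjusted p of 0.05. *Spp1* and *Sox2* are the lowest in ZHBTc4 cells, at -4.08 and -4.25, and *Fgf4* of ZHTc6 cells is the open symbol, at -0.06.

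The partners of the members moved in mixed directions. Over the 5 days 23.7% of all features were higher and 22.8% lower in ZHBTc4 cells, against 29.3% higher and 20.4% lower in ZHTc6 cells, beside which the counts of these short lists stand. Of 15 measured genes of FGF signalling 5 were higher and 5 lower in ZHBTc4 cells over the 5 days, and 6 and 6 in ZHTc6 cells, with medians of -0.05 and 0.03. *Etv5*, a transcription factor induced by FGF signalling, averaged -2.49 in ZHBTc4 and -0.38 in ZHTc6 cells. The receptor gene *Fgfr2* averaged 1.28 in ZHBTc4 cells, against -0.25 in ZHTc6 cells. *Fgf8*, another ligand, stood at 0.01 in ZHBTc4 cells (adjusted p = 0.895) and averaged 1.26 in ZHTc6 cells (adjusted p = 4.91e-05). Of 8 measured receptors of osteopontin 2 were higher and none lower in ZHBTc4 cells, with 6 that did not pass, and 3 were higher and 1 lower in ZHTc6 cells. The integrin gene *Itgb1* averaged 1.76 in ZHBTc4 cells and stood at -0.17 in ZHTc6 cells (adjusted p = 0.0525), and *Itgav* averaged 1.13 and stood at 0.35 (adjusted p = 0.063). In ZHTc6 cells *Itga8* averaged 0.69 (adjusted p = 2.97e-04) and *Itgb6* 0.35 (adjusted p = 0.0109). In ZHBTc4 cells they stood at -0.05 (adjusted p = 0.622) and 0.14 (adjusted p = 0.198). Of 6 measured genes of SCF ligases *Cul1*, the scaffold, was higher in ZHBTc4 cells (1.21 ± 0.44, adjusted p = 3.10e-04) and *Fbxo30* lower in both lines (-0.47 and -0.34), and *Skp2* was lower in ZHTc6 cells (-0.38). *Rlim*, whose product targets the Zfp42 protein for degradation, averaged 1.20 in ZHBTc4 cells (adjusted p = 9.10e-06) and stood at 0.10 in ZHTc6 cells (adjusted p = 0.255).

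Markers of other cell types moved in the same days, beside the 23.7% of features that were higher in ZHBTc4 cells and the 29.3% in ZHTc6 cells. Of 9 measured trophectoderm markers 7 were higher and 1 lower in ZHBTc4 cells (5-day ratios from -0.65 to 4.00, median 3.19), and 5 were higher and 2 lower in ZHTc6 cells (from -0.71 to 1.93, median 0.34). Of 9 primitive endoderm markers 5 were higher and 1 lower in ZHBTc4 cells (from -1.60 to 1.78) and 6 higher and 1 lower in ZHTc6 cells (from -0.70 to 0.98). Of 5 mesoderm markers 2 were higher and 1 lower in ZHBTc4 cells (from -0.75 to 1.23), and all 5 were higher in ZHTc6 cells (from 0.51 to 2.05). Of 4 neural markers 2 were higher in each line, with 1 lower in ZHBTc4 cells (from -2.38 to 1.41) and 2 lower in ZHTc6 cells (from -0.72 to 0.61). Their part in the values of the 5 genes was not tested.

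At 0 h, 4 of the 5 genes could be named on the reference arrays, and *Spp1* was not analysed here. The question was how high the genes stand in undifferentiated cells and whether the lines start alike. *Zfp42* was 5.33, 5.56 and 5.62 above the reference RNA on the log2 scale in ZHBTc4 cells and 5.84, 5.97 and 5.63 in ZHTc6 cells, which are means of 45.4-fold and 56.3-fold. *Fbxo15* was at 4.17, 4.65 and 4.28 in ZHBTc4 and 4.24, 4.46 and 4.13 in ZHTc6 cells, or 20.6-fold and 19.4-fold. *Utf1* was at 1.97, 2.06 and 1.47 in ZHBTc4 and 1.65, 1.71 and 1.58 in ZHTc6 cells, or 3.56-fold and 3.14-fold, and *Fgf4* at 0.22, 0.47 and 0.33 in ZHBTc4 and 0.44, 0.48 and 0.43 in ZHTc6 cells, or 1.27-fold and 1.37-fold. By the mean of the 6 arrays *Zfp42* held rank 306, *Fbxo15* rank 321, *Utf1* rank 602 and *Fgf4* rank 4499 from the highest of 18433 features. These are ratios to a pool of other cells, so that they do not order the genes by their RNA level in ES cells.

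None of the 4 genes differed between the lines at 0 h in limma's test (8.62% of 18433 features did), and none had an unadjusted p below 0.05. The difference, ZHBTc4 minus ZHTc6, was -0.31 for *Zfp42* (SE 0.13, adjusted p = 0.201), whose replicates did not overlap, -0.11 for *Fgf4* (SE 0.097, adjusted p = 0.479), 0.18 for *Utf1* (SE 0.17, adjusted p = 0.517) and 0.09 for *Fbxo15* (SE 0.16, adjusted p = 0.735). Without ZHBTc4 replicate 3 *Utf1* passed, with a higher level in ZHBTc4 cells (0.37, adjusted p = 0.0313). There was no dye swap on these arrays, and the dye was the same in both lines.

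**Figure D4:**
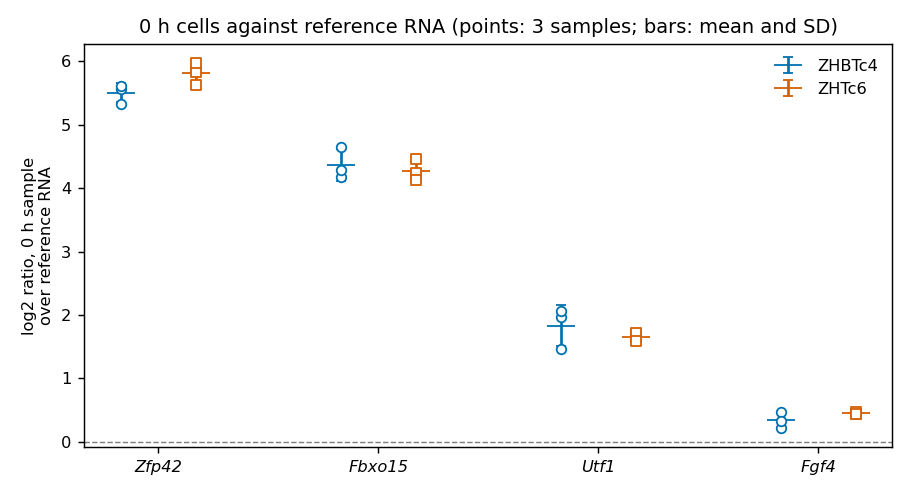
Log2 ratio of 0 h cells over Universal Mouse Reference RNA (y axis) for the 4 genes named on these arrays (x axis), with ZHBTc4 in blue circles left of ZHTc6 in orange squares; points are the 3 samples and bars the mean and SD. *Zfp42* and *Fbxo15* lie near 45.4-fold and 20.6-fold of the reference in ZHBTc4 cells, and *Fgf4* lies close to it.

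The siTcl1 arrays asked whether the loss of *Tcl1*, which encodes a coactivator of Akt, changes these genes. *Tcl1* itself was at 2.56 at 560 uM and 2.09 at 1120 uM of siTcl1 over the reference, against 4.29 with siGFP, or 0.301-fold and 0.218-fold of it. *Zfp42* was at 6.49 and 6.34 after siTcl1 at 560 and 1120 uM, against 6.03 after siGFP, and *Fbxo15* at 3.72 and 3.74, against 4.24. *Utf1* was at 1.17 and 1.07, against 1.46, and *Fgf4* at -0.37 and -0.33, against -0.15. *Zfp42* was thus above siGFP at both doses (0.46 and 0.31), and *Fbxo15* (-0.52 and -0.50), *Utf1* (-0.30 and -0.39) and *Fgf4* (-0.21 and -0.17) were below it. The differences of all 18433 features had 5th and 95th percentiles of -0.64 and 0.67 at 560 uM and of -0.71 and 0.87 at 1120 uM, and all values of the 4 genes lay within them. Each condition was 1 array, so that no replicate check and no test were possible. With quantile normalization *Zfp42* was 0.079 above siGFP at either dose.

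**Figure D5:**
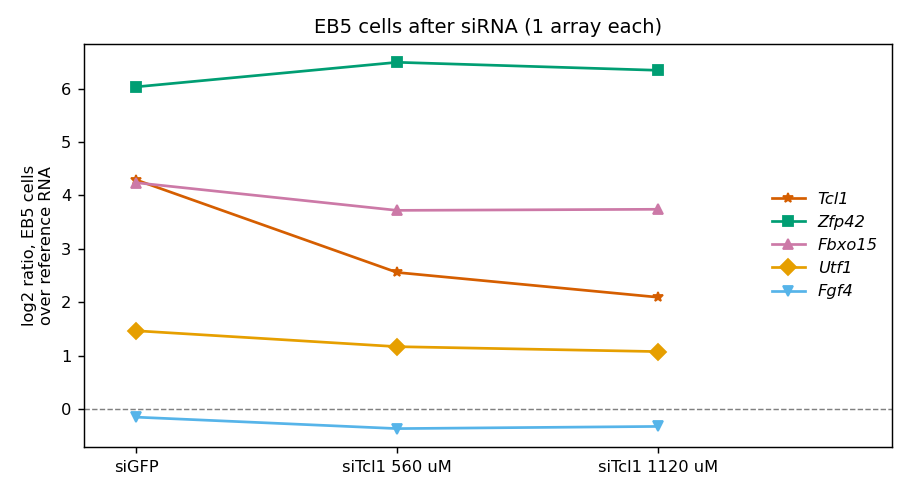
Log2 ratio over Universal Mouse Reference RNA (y axis) in EB5 cells after siGFP and after siTcl1 at 560 and 1120 uM (x axis), 1 array each. *Tcl1* drops to 2.56 and 2.09 after siTcl1, against 4.29 after siGFP, while the 4 other genes move by at most 0.52.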

How the data were processed

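Per the submitters' notes the authors ran Agilent Feature Extraction (version and settings not given in the sources used here). What they deposited is the log10 ratio of each oligo, red over green, bounded at -2 and 2, and no columns of comparisons. Lacking intensities, weak spots could not be left out, and precision is limited by how many arrays there are. Ratios were turned to log2 with the time point, or the sample, on top. Left out were 216 rows whose number lies under that of the first known oligo and 211 at a bound on more than 0.5 of the arrays (163 on the reference arrays). Oligos of a gene were averaged. They were named by the annotation where it gives 1 gene and otherwise by the tables of the study, which favours genes listed there as changed. As an exception the only oligo annotated to *Fgf4*, with another gene, was used, since nothing else names it; an oligo shared by *Utf1* and *Zfp511* was not, since a table names another for *Utf1*. The siRNA and 0 h arrays were not compared.

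Fits used limma 3.58.1 in R 4.3.3, with moderated tests and adjustment after Benjamini-Hochberg, for each time point, the mean of the 5 time points, their difference between the lines, consecutive time points (all 30 means in one fit) and the 0 h arrays. They were tried on simulated data with independent means. Real time points of a number share their 0 h RNA, and the effect of that sharing was not simulated. The Methods describe the 3 samples as prepared independently. Numbers mark a shared 0 h RNA within a line, where deviations from the mean correlated with medians of 0.115 to 0.378 per number. The labels state no pairing of equal numbers between the lines, and the main fits used none. Markers of other cell types are given as counts. Otherwise named are the 5 genes, members of the lists that passed in either line over the 5 days with the largest change first (at most 4 a list), and the 3 genes most like each. A gene of the FGF list that this rule names is not reported here. Members and lists were chosen with earlier results of these data known. Alternatives tried were centred or scaled arrays, 1 dye alone, 1 fit for all time points, each line alone, unmoderated tests, the first oligo of a gene, no rows removed, the 120 h pair as labelled, replicate blocks, quantile normalization of the siRNA arrays and leaving out each replicate.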

Additional observations from a re-analysis of the deposited data

Results flagged for a closer look

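The change over 0 h differed between the lines by the test of the difference itself (limma, adjusted p below 0.05) for all 5 genes over the 5 days and for 16 of 25 pairs of gene and time point. All values are ZHBTc4 minus ZHTc6 on the log2 scale. Of all features 22.3% were lower in this difference over the 5 days, and between 11.3% (72 h) and 27.2% (48 h) at single time points. *Fgf4* differed by -0.76 at 24 h, -1.03 at 48 h and -0.49 over the 5 days, and *Utf1* by -1.20 at 24 h, -1.83 at 48 h, -0.72 at 72 h and -0.77 over the 5 days. *Spp1* differed by -2.38 over the 5 days, with -0.79 at 48 h, -3.16 at 72 h, then -4.14 at 96 h and -3.65 at 120 h. *Zfp42* differed by -1.21 over the 5 days, with -0.997 at 48 h, -1.59 at 72 h, then -1.95 at 96 h and -1.55 at 120 h, and *Fbxo15* by -0.69 at 72 h, -1.62 at 96 h, -1.41 at 120 h and -0.66 over the 5 days.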

How the results depend on the processing

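With scaled arrays 3 of the 5 genes differed between the lines over the 5 days. Of all features 14.4% were then lower in ZHBTc4 than in ZHTc6 cells, against 22.3% without scaling. The difference, ZHBTc4 minus ZHTc6, changed sign with scaling for *Fgf4* at 96 h (0.17) and 120 h (0.00222) and *Utf1* at 96 h (0.51) and 120 h (0.61). It also did so for *Zfp42* at 24 h (-0.63) and *Fbxo15* at 24 h (-0.19), 48 h (-0.67) and 72 h (0.48). With the time point in Cy5 alone *Fgf4* turned to 0.016 in this difference at 96 h, to 0.13 at 24 h in ZHBTc4 cells and to 0.17 over the 5 days in ZHTc6 cells, and *Utf1* to 0.00928 in the difference at 120 h. Leaving out 1 replicate of a line, the difference ranged from -0.00685 to 0.19 for *Fbxo15* at 48 h, from -0.15 to 0.00124 for *Utf1* at 96 h and from -0.072 to 0.0094 at 120 h, from -0.063 to 0.26 for *Zfp42* at 24 h, from -0.38 to 0.18 for *Spp1* at 24 h and from -0.0497 to 0.19 for *Fbxo15* at 0 h. The steps ranged from -0.041 to 0.14 for *Fgf4* of ZHBTc4 cells to 72 h and from -0.33 to 0.00223 for that of ZHTc6 cells to 48 h, and for *Spp1* from -0.12 to 0.10 to 120 h in ZHBTc4 cells and from -0.74 to 0.0702 to 48 h and from -0.048 to 0.087 to 96 h in ZHTc6 cells. With 1 replicate left out, the number of steps past the threshold in ZHTc6 cells was between 5 (without ZHTc6 replicate 2 or 3) and 8, against 10 with the replicate block, and that of genes differing at 0 h between 0 and 1 (*Utf1*, without ZHBTc4 replicate 3). Of 170 values over the 5 days, 168 kept direction and call, and 821 of 850 at single time points, 471 of 510 between the lines and 301 of 320 for steps did so, the cause of the others not being tested. Part of this agreement was fixed beforehand. The unmoderated test keeps every ratio, and leaving out a replicate of 1 line keeps the ratios over 0 h of the other line. The replicate block changed the calls named with the genes (for *Fbxo15* at 72 h adjusted p = 0.0554) and no other call. At 0 h the deviations of same-numbered samples of the lines correlated with 0.145, -0.11 and 0.112. Values of this size do not tell whether these samples share more than a number. The 0 h and siTcl1 arrays have no dye swap, and the siTcl1 arrays no replicates.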
